A study of Mus musculus with 12 samples.

Results

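The genes described here are 7 transcription factors known for their part in naive, memory and stem-like T cells: Tcf7, Lef1, Id3, Bach2, Myb, Satb1 and Foxp1. They were chosen by gene symbol, and all 7 were found among the 13283 genes of the table. The libraries measured mRNA in mouse cytotoxic CD8 T cells (CTL), in 4 groups of 3 biological replicates. WT CTL came from control mice that carried Cre recombinase under the granzyme B promoter. FOXO1-GFP KO CTL came from mice with the same Cre and floxed Foxo1-EGFP alleles, so that both genotypes expressed the Cre. Each genotype was kept with vehicle (DMSO) or with 10 µM IC87114, an inhibitor of PI3K p110δ (PI3Kdi), for 24 h. The mice were females of 11 to 27 weeks, the cells were activated for 48 h through CD3 and CD28, and IL-12 at 2 ng/mL was present throughout together with IL-2 at 20 ng/mL. WT cells were sorted as live CD8+ cells, whereas KO cells were also gated as GFP-, so the sort differed between the genotypes. The Cre acts only once granzyme B is switched on, and the libraries therefore describe loss of Foxo1 in cells that had already been activated.

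As background, PI3K p110δ acts through AKT, which phosphorylates FOXO1 and keeps this transcription factor out of the nucleus. TCF-1 (the product of Tcf7) and LEF-1 are HMG-box factors that keep T cells in a less differentiated state, and ID3 holds E proteins off DNA. BACH2 restrains effector genes at AP-1 sites, MYB maintains the stem-like memory pool, SATB1 organises chromatin in T cells, and FOXP1 is known for naive T cell quiescence. Values are FPKM (fragments per kilobase of exon, scaled to library size), a level per length that can be compared between genes.

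RefSeq promoter windows of build GRCm38.p6, running from 250 bases before a transcript start to 50 after it, were found for 7 of the 7 genes, 17 windows in all. They were searched on both strands for a FOXO site (GTAAACA) and for the TCF/LEF sites CTTTGAT and CTTTGAA. The FOXO site was in 2 of the 17 windows, a downstream start of Tcf7 and the start of Myb, and in 3.65% of all 32851 windows of that length. A TCF/LEF site was in 1 of the 17, an internal start of Foxp1, and in 8.65% of all windows. The stretches around these 3 matches follow, and the other 14 windows held none. The table has 1 window for Bach2, at a start inside the gene, so the first base of that gene was not searched. The windows of Lef1, Id3 and Foxp1 did not cover the annotated first base of those genes either. Capitals mark the match, read on the strand of the gene, and a match is a run of letters and not a shown site of binding.
Tcf7, chr11:52282572-52282711, minus strand, positions -116 to 24 against the downstream start: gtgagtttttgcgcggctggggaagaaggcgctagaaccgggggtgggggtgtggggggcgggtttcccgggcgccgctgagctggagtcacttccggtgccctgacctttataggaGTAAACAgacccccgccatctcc
Myb, chr10:21160936-21160965, minus strand, bases 20 to 49 of the transcript: tgtttgatggcatcTGTTTACagagttaca
Foxp1, chr6:99266689-99266745, minus strand, positions -230 to -174 against the internal start: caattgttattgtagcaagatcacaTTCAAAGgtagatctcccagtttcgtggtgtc

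The deleted gene was examined first. Foxo1 mRNA was 9.99, 5.77 and 5.79 FPKM in WT and 10.46, 5.84 and 7.50 FPKM in WT treated with PI3Kdi (replicates 1 to 3 throughout). It was 0.58, 1.08 and 1.44 FPKM in KO and 0.61, 1.06 and 1.75 FPKM in KO treated with PI3Kdi. Every KO library was below every WT library, and the log2 fold change without PI3Kdi was -2.71 (SE 0.39, limma, adjusted p = 0.0148). Reads outside the deleted exon can still be counted. Depth was 12.9 to 48.0 M reads per library, and the 9 CD8 T cell and CTL markers examined were all in the table, Gzmb at a mean of 9310 FPKM in WT and Cd8a at 154 FPKM. Of 13 B cell markers, 4 were in the table, with Ighm called lower in KO at either treatment and Igkc with PI3Kdi. Their summed level reached at most 16.1 FPKM in WT and was 15.8 to 19.8 in WT with PI3Kdi. It was 5.07 to 7.41 in KO and 4.73 to 6.72 in KO with PI3Kdi, so the sum was lower in KO, as Tcf7 and Id3 were. Its largest part in WT was Ighm, at a mean of 8.67 FPKM against 2.83 in KO. Cd79b was at 3.61 FPKM in WT and 2.51 in KO, and Bank1 was not lower in KO (0.55 and 0.577). Ms4a1 and Cd79a were among the B cell markers with no row. Of 12 myeloid markers, 6 were in the table, and their sum was 77.2 to 104 FPKM in WT, 125 to 214 in WT with PI3Kdi, 50.2 to 62.3 in KO and 64.7 to 77.2 in KO with PI3Kdi. Most of that sum was Ly6g, at a mean of 72.9 FPKM in WT, whereas Lyz2, Csf1r and Adgre1 had no row. Of 4 CD4 T cell markers, 3 were in the table, at a sum of 4.96 to 8.24 FPKM over the 12 libraries. With PI3Kdi in WT and libraries paired by replicate number, Igkc was called higher (log2 1.35, adjusted p = 0.0294), as was Ly6g (0.91, adjusted p = 0.00171). Cd4 was called too (0.68, adjusted p = 0.0413), from a mean of 0.52 to 0.893 FPKM. The other B cell, myeloid and CD4 markers were not called there. Bank1 was at a log2 of -0.53, whereas Ighm (0.51), Fcgr3 (0.39) and Cd14 (0.32) were above 0. Cd79b (0.02), Itgam (-0.04), Cd68 (0.03), Itgax (0.07), Zbtb7b (-0.09) and Cd40lg (-0.05) were near 0. The part of these other cells in the results below was not tested.

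**Figure D1:**
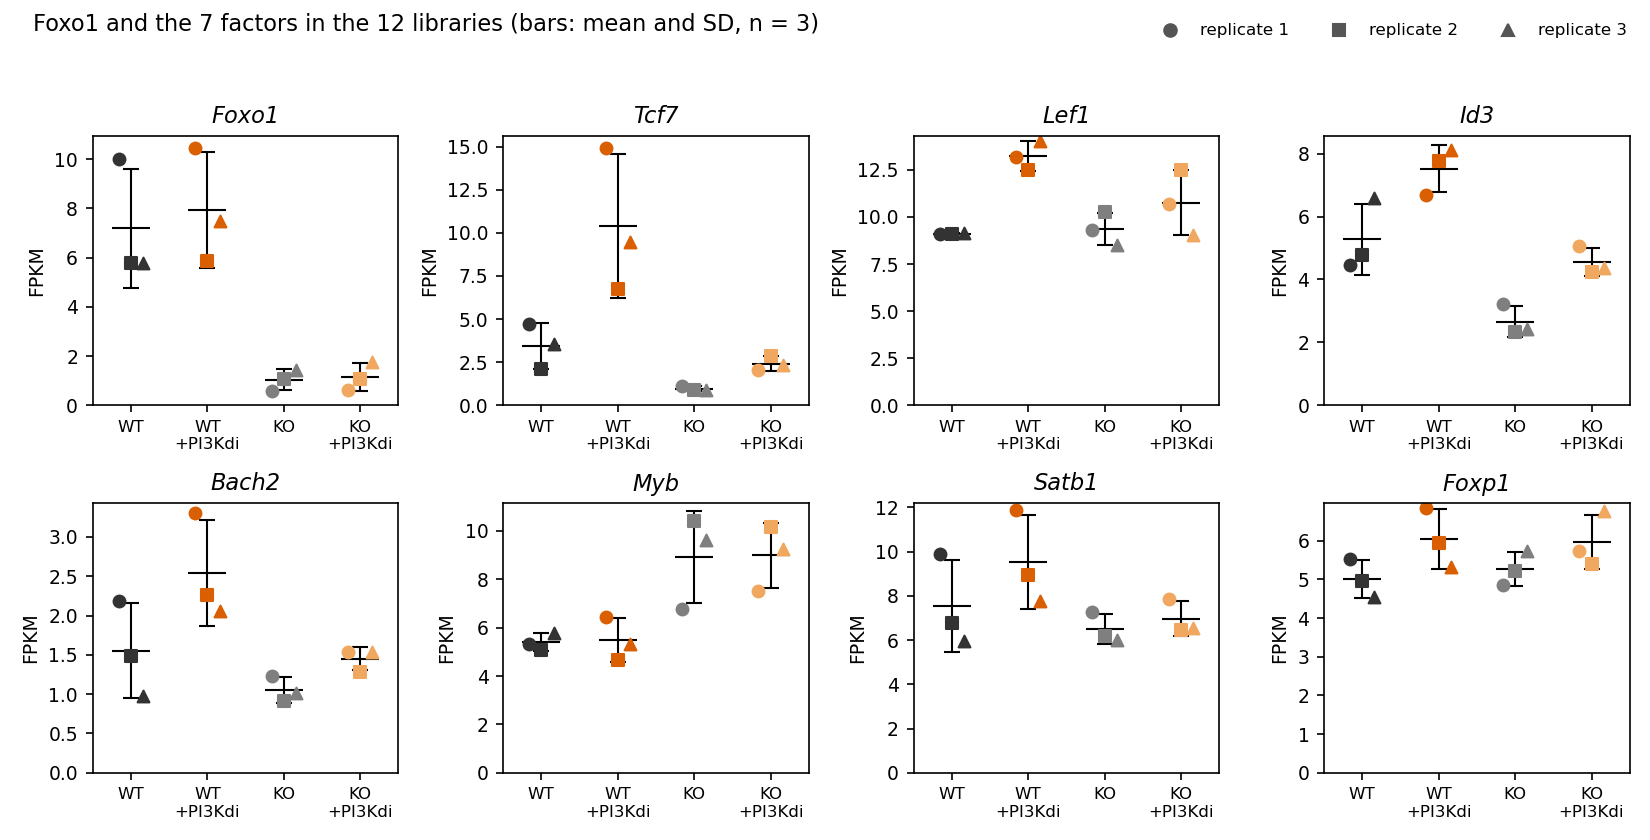
FPKM (y axes, each from 0) of Foxo1 and the 7 factors in each of the 12 libraries, by group (x axes). KO is FOXO1-GFP KO, symbols are replicate numbers, and bars are the mean and SD (n = 3). Tcf7 ranged from 0.88 to 14.94 FPKM, and Myb was higher in the 6 KO libraries (6.76 to 10.40 FPKM) than in the 6 WT libraries (4.65 to 6.44 FPKM).

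Tcf7 varied the most. Tcf7 (ENSMUSG00000000782, chr11:52252371-52283014, minus strand) encodes TCF-1. Its level was 4.71, 2.08 and 3.56 FPKM in WT (mean 3.45 ± 1.32, SD, n = 3) and 14.94, 6.74 and 9.44 FPKM in WT with PI3Kdi (10.4 ± 4.18). In KO it was 1.13, 0.90 and 0.88 FPKM (0.97 ± 0.139), and in KO with PI3Kdi 2.04, 2.87 and 2.35 FPKM (2.42 ± 0.419). Treated libraries were above untreated ones in both genotypes with no overlap, and KO was below WT at either treatment with no overlap. In the order of the levels, KO was lowest, then KO with PI3Kdi and WT, which overlapped, and WT with PI3Kdi was highest. In such bulk libraries, fewer cells that express a gene and less of its mRNA per cell cannot be told apart. The lowest library, KO replicate 3, held an estimated 30 Tcf7 reads, and the highest, WT with PI3Kdi replicate 1, held 747.

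The inhibitor asked whether PI3K p110δ activity holds these factors down in CTL. An mRNA was called where the adjusted p was under 0.05 over all genes and the fold change over 1.5 in limma. Replicate numbers paired treated and untreated libraries of a genotype (the correlation of their departures from group means was 0.596 to 0.838 in WT and 0.594 to 0.78 in KO), so each comparison is given without and with a replicate block within genotype. Without the block, 0 of 7 members were called in WT, where 0.0979% of all genes were, and 4 had an unadjusted p under 0.05, against 5.14% of all genes. With the block 2 were called, Tcf7 and Bach2, where 2.57% of all genes were. In KO, 0 of 7 were called without the block (background 0.0452%) and 2 had an unadjusted p under 0.05, against 5.17%. With the block 2 were called, Tcf7 and Id3 (background 2.79%). The voom variant of limma, run on estimated reads, also called 0 in each genotype without the block and the same members with it. Tcf7 rose with PI3Kdi by a log2 of 1.56 in WT (2.95-fold, SE 0.15, adjusted p = 0.000175 with the block, 0.129 without) and by 1.23 in KO (2.35-fold, SE 0.15, adjusted p = 0.00108 with the block, 0.471 without). Tcf7 in pair 1 of KO had the smallest ratio of treated to untreated, 1.81, and pair 2 of WT the largest, 3.24.

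Lef1 (ENSMUSG00000027985, chr3:131110471-131224356, plus strand), the closest relative of Tcf7, was expressed at a higher level and varied less. It was 9.12, 9.09 and 9.13 FPKM in WT and 13.17, 12.47 and 14.05 FPKM in WT with PI3Kdi. The KO libraries had 9.32, 10.26 and 8.52 FPKM, and those of KO with PI3Kdi 10.70, 12.50 and 9.06 FPKM. WT with and without PI3Kdi did not overlap, whereas the 2 KO groups overlapped with each other and with WT. Lef1 with PI3Kdi had a log2 fold change of 0.53 in WT (1.45-fold, SE 0.06, adjusted p = 0.000352 with the block and 0.197 without), which was under the fold change of 1.5. In KO it was 0.19 (SE 0.06, adjusted p = 0.0672 with the block). Unlike Tcf7, Lef1 had no measurable difference between the genotypes without PI3Kdi, at a log2 of 0.04 with a 95% confidence interval of -0.23 to 0.30. With PI3Kdi, Lef1 was at a log2 of -0.31 in KO against WT (interval -0.58 to -0.04, adjusted p = 0.392).

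Id3 (ENSMUSG00000007872, chr4:136143497-136145755, plus strand) encodes the inhibitor of E proteins that marks long-lived CD8 T cells. It was 4.47, 4.77 and 6.58 FPKM in WT (5.27 ± 1.14) and 6.68, 7.77 and 8.12 FPKM in WT with PI3Kdi (7.52 ± 0.751). In KO it was 3.22, 2.33 and 2.43 FPKM (2.66 ± 0.488), and in KO with PI3Kdi 5.07, 4.24 and 4.37 FPKM (4.56 ± 0.446). The order of the groups was that of Tcf7: KO was lowest, KO with PI3Kdi and WT overlapped, and WT with PI3Kdi was highest. In KO, Id3 rose with PI3Kdi by a log2 of 0.77 (1.70-fold, SE 0.09, adjusted p = 0.000704 with the block and 0.32 without). In WT the log2 fold change of Id3 was 0.52 (1.43-fold, SE 0.09, adjusted p = 0.00481 with the block and 0.572 without), under the fold threshold.

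Bach2 (ENSMUSG00000040270, chr4:32238804-32586108, plus strand) was the lowest of the 7 in WT. Its level was 2.19, 1.49 and 0.98 FPKM in WT and 3.31, 2.26 and 2.06 FPKM in WT with PI3Kdi. Untreated KO had 1.23, 0.91 and 1.01 FPKM, and in KO with PI3Kdi 1.54, 1.28 and 1.53 FPKM. The WT groups overlapped, because replicate 1 was high and replicate 3 low, but the treated library was higher in each of the 3 pairs. Bach2 rose with PI3Kdi in WT by a log2 of 0.71 (1.64-fold, SE 0.13, adjusted p = 0.00553 with the block and 0.709 without). This call was lost when WT replicate 3 was left out, where Id3 and Tcf7 were called instead. In KO the log2 fold change of Bach2 was 0.44 (SE 0.13, adjusted p = 0.0476 with the block), under the fold threshold. A sense intronic gene, Bach2it1, lies inside Bach2 and has its own row, and how reads shared between them were counted was not examined. Annotated genes without a row also overlap Tcf7, Lef1, Myb and Foxp1.

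Satb1 and Foxp1 differed by smaller amounts. Satb1 (ENSMUSG00000023927, chr17:51736187-51833290, minus strand), a chromatin organiser, was 9.88, 6.79 and 5.96 FPKM in WT and 11.88, 8.93 and 7.77 FPKM in WT with PI3Kdi. Satb1 in KO was 7.26, 6.20 and 6.01 FPKM, and in KO with PI3Kdi 7.87, 6.44 and 6.56 FPKM. Treated and untreated libraries overlapped in each genotype, as did KO and WT at each treatment, and replicate 1 was the highest in every group. A gene of unknown function inside Satb1, E430014B02Rik, has its own row, and how shared reads were counted was not examined. The PI3Kdi log2 fold change of Satb1 was 0.34 in WT (SE 0.08, adjusted p = 0.0255 with the block and 1 without) and 0.10 in KO (SE 0.08, adjusted p = 0.432 with the block). Foxp1 (ENSMUSG00000030067, chr6:98925338-99522721, minus strand), a forkhead factor, was 5.54, 4.95 and 4.55 FPKM in WT and 6.86, 5.93 and 5.32 FPKM in WT with PI3Kdi. Foxp1 in KO was 4.86, 5.21 and 5.73 FPKM, and in KO with PI3Kdi 5.73, 5.41 and 6.76 FPKM. These groups overlapped in the same way, and the log2 fold change of Foxp1 was 0.26 in WT (SE 0.07, adjusted p = 0.0352 with the block and 1 without) and 0.17 in KO (SE 0.07, adjusted p = 0.11 with the block).

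Myb (ENSMUSG00000019982, chr10:21124935-21160984, minus strand) had another pattern. It was 5.32, 5.06 and 5.79 FPKM in WT (5.39 ± 0.37) and 6.44, 4.65 and 5.34 FPKM in WT with PI3Kdi (5.48 ± 0.903). In KO it was 6.76, 10.40 and 9.61 FPKM (8.92 ± 1.91), and in KO with PI3Kdi 7.52, 10.16 and 9.27 FPKM (8.98 ± 1.34). Every KO library was above every WT library, and the treated and untreated libraries of a genotype overlapped. The PI3Kdi log2 fold change of Myb was 0.01 in WT (95% confidence interval with the block -0.19 to 0.21) and 0.02 in KO (-0.18 to 0.22). KO replicate 1, which had the lowest Myb of the KO libraries at either treatment, also had the lowest remaining Foxo1.

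**Figure D2:**
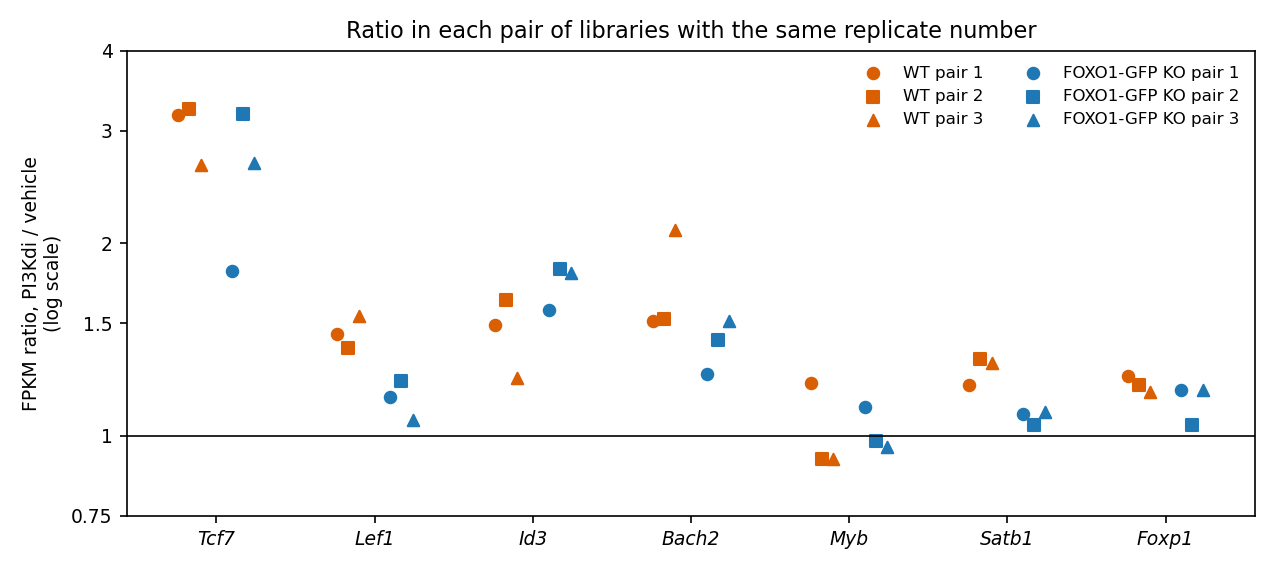
Ratio of FPKM with PI3Kdi to FPKM with vehicle (y axis, log scale) for each factor (x axis) in the 3 pairs of WT and the 3 pairs of FOXO1-GFP KO libraries. The ratio was above 1 in all 6 pairs for 6 of the 7 factors, while Myb lay between 0.92 and 1.21.

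Read pair by pair, 6 of 7 members were higher with PI3Kdi in all 3 WT pairs, where 16.7% of all genes were. The same count in KO was 6 of 7 (background 23.1%), and 6 of 7 were higher in all 6 pairs (background 9.2%), with Myb the exception. Counting by pairs was chosen after the values were seen. The median log2 fold change of the 7 was 0.52 in WT, against -0.04 over all genes, and 0.19 in KO, against -0.02. Averaged over the genotypes with the block, a comparison that was also added after the values were seen, PI3Kdi called 2 of 7, Tcf7 and Id3 (background 2.12%). Tcf7 had an averaged log2 fold change of 1.39 (SE 0.11, adjusted p = 1.24e-05), and Id3 of 0.64 (SE 0.06, adjusted p = 5.71e-05). Bach2 reached 0.58 (1.49-fold, adjusted p = 0.00113), just under the fold threshold.

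The KO libraries asked how much of each factor's mRNA depended on FOXO1. Without PI3Kdi, 0 of 7 members were called between KO and WT in limma, where 0.331% of all genes were called without the block and 0.233% with it, and 3 had an unadjusted p under 0.05 either way, against 6.51% and 5.09%. Voom called 0 as well. Tcf7 was lower by a log2 of -1.66 (SE 0.31), at an adjusted p of 0.0596, and Id3 by -0.95 (SE 0.17), at an adjusted p of 0.0507, both just past the threshold of 0.05. Tcf7 was called there when WT replicate 2 was left out or when WT with PI3Kdi replicate 1 was left out, and Id3 when only genes of at least 1 FPKM on average were tested. The log2 difference of Myb was 0.70 (SE 0.18, adjusted p = 0.183).

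With PI3Kdi, 1 of 7 members was called between KO and WT, Tcf7, where 1.45% of all genes were called without the block and 1.18% with it. Tcf7 was lower in KO by a log2 of -1.99 (3.98-fold, SE 0.31, adjusted p = 0.00905), and it stayed called whichever library was left out. Id3 had a log2 difference of -0.71 (SE 0.17, adjusted p = 0.0846), Bach2 of -0.75 (SE 0.26, adjusted p = 0.287) and Myb of 0.71 (SE 0.18, adjusted p = 0.102). The study, which used voom on read counts, lists Bach2 beside Tcf7 as raised by PI3Kdi in WT and lower in treated KO. The treated groups did not overlap for Tcf7, Id3, Bach2 or Myb, of which only Tcf7 was called. The share of all genes without overlap was not counted, so nothing is drawn from this separation. The median log2 difference of the 7 was -0.19 without PI3Kdi and -0.43 with it, against -0.01 and 0.01 over all genes. Averaged over vehicle and PI3Kdi with the block, 2 of 7 were called, Tcf7 and Id3 (background 0.67%). The averaged log2 difference was -1.83 for Tcf7 (SE 0.29, adjusted p = 0.0152) and -0.83 for Id3 (SE 0.17, adjusted p = 0.0496), whereas Myb was at 0.70 (SE 0.17, adjusted p = 0.124). The call of Id3 was narrow: it was lost when any library but WT replicate 3 was left out, and without WT with PI3Kdi replicate 1 it was Myb that was called beside Tcf7.

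**Figure D3:**
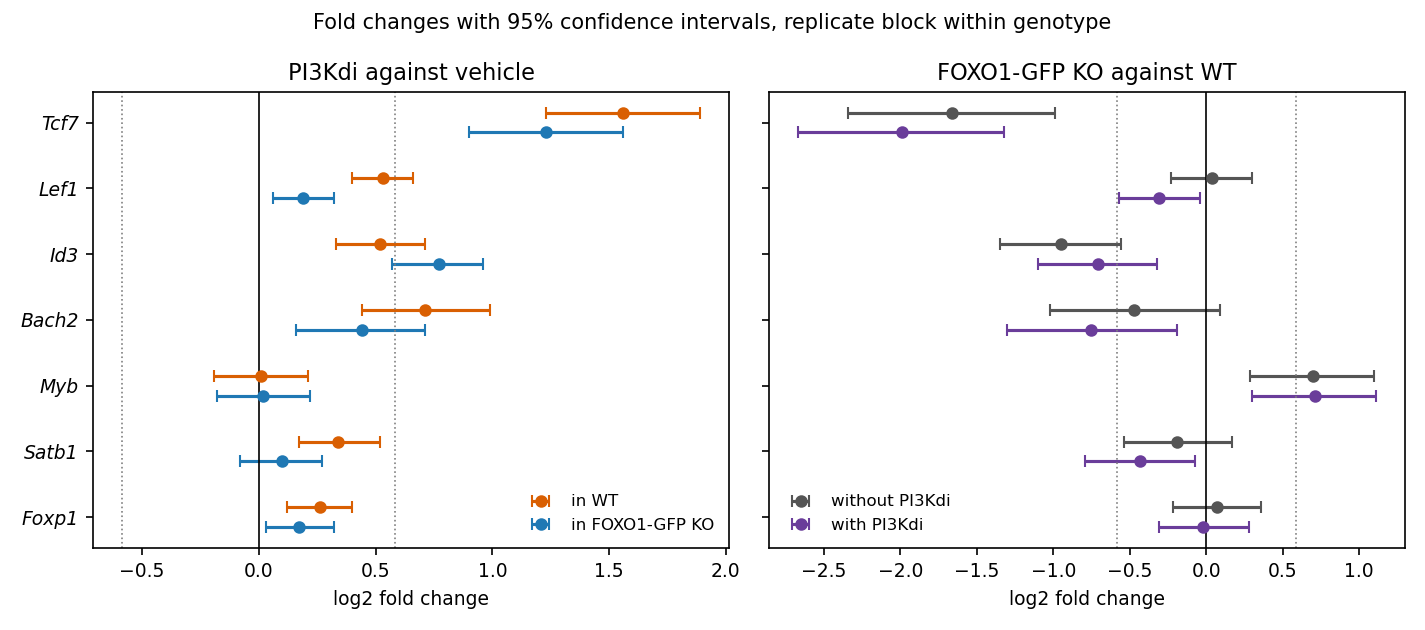
Log2 fold changes (x axes) of the 7 factors with 95% confidence intervals from limma with the replicate block within genotype. The left panel gives PI3Kdi against vehicle in each genotype, the right panel FOXO1-GFP KO against WT at each treatment, and dotted lines mark a fold change of 1.5. Tcf7 lies furthest from 0 in both panels (1.56 with PI3Kdi in WT, -1.99 in KO with PI3Kdi), and Myb lies near 0 on the left and at 0.70 and 0.71 on the right.

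Whether the response to PI3Kdi itself differed between the genotypes was tested as the difference of the responses, KO minus WT. With limma, 0 of 7 members were called with or without the block, where 0.0226% of all genes were called with it. No member had an unadjusted p under 0.05 without the block (0 of 7), and 1, Lef1, did with it, against 1.51% and 10.8% of all genes. The difference for Lef1 was a log2 of -0.34 (95% confidence interval with the block -0.53 to -0.16, adjusted p = 0.142). For Tcf7 it was -0.33 (-0.80 to 0.14), for Id3 0.25 (-0.03 to 0.52), and for Bach2 -0.28 (-0.67 to 0.11). The interval for Tcf7 included 0, and its 2.95-fold rise in WT was not told apart from its 2.35-fold rise in KO. In absolute level the treated KO libraries (2.04 to 2.87 FPKM) only reached the range of untreated WT (2.08 to 4.71 FPKM).

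**Figure D4:**
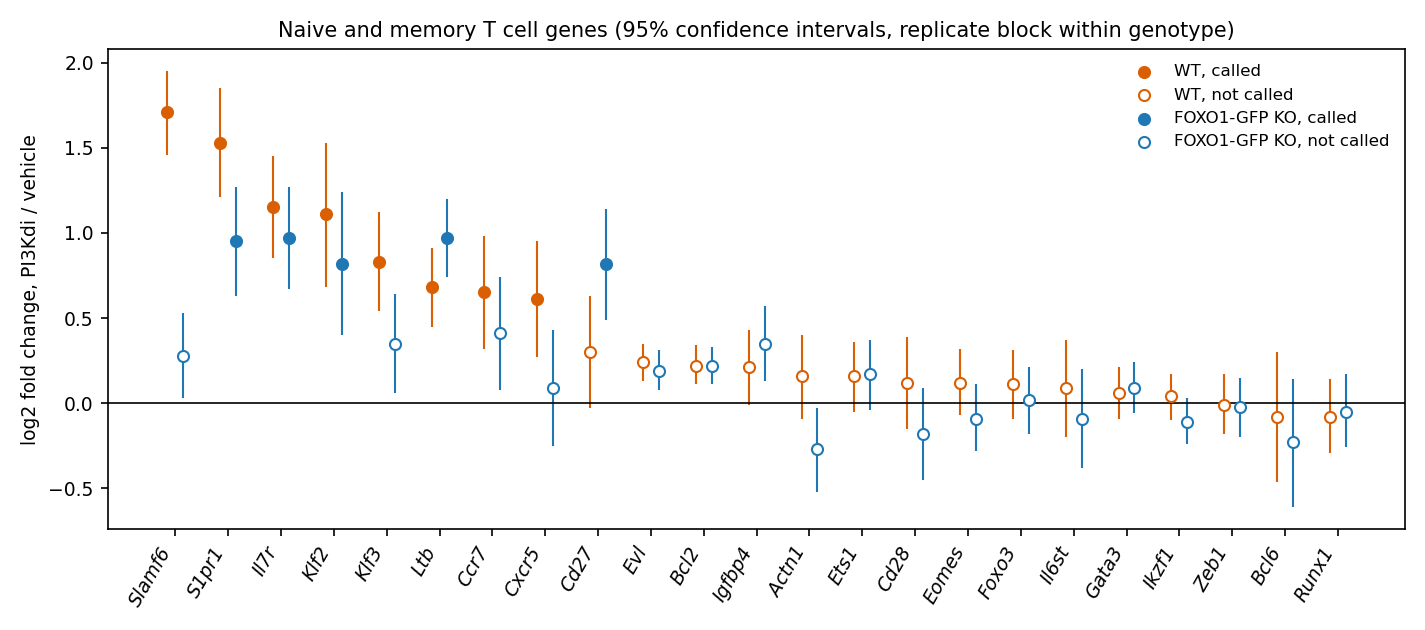
Log2 fold changes with PI3Kdi (y axis) and 95% confidence intervals from limma with the replicate block within genotype for the 23 naive and memory T cell genes in the table (x axis), ordered by the change in WT. Filled symbols were called, 8 in WT and 5 in FOXO1-GFP KO. Slamf6 had the largest change in WT (1.71), while its value in KO (0.28) is set largely by the added 0.1 FPKM, because both KO means lie below it (0.0267 and 0.0533 FPKM).

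Surface receptors and other genes of naive and memory T cells were examined beside the factors. Of 25 listed genes, 23 were in the table. With PI3Kdi in WT, 1 rose without the block (Slamf6) and 8 with it (of all genes, 0.0979% and 2.57% were called): Ccr7, which directs cells to lymph nodes, the survival receptor Il7r, the egress receptor S1pr1, Klf2, Klf3, Slamf6, Cxcr5 and Ltb. None of the 23 was called lower. Klf3 (mean 0.127 FPKM in WT and 0.303 with PI3Kdi) and Cxcr5 (0.11 and 0.217) lay near the 0.1 FPKM that was added. S1pr1 rose by a log2 of 1.53 (SE 0.15, adjusted p = 0.000133 with the block) and Klf2, a factor that drives S1pr1, by 1.11 (SE 0.19, adjusted p = 0.00553). In KO, 0 were called without the block, where 4 of 23 had an unadjusted p under 0.05 against 5.17% of all genes. With the block 5 rose (Il7r, S1pr1, Klf2, Cd27 and Ltb), where 2.79% of all genes were called. Of the 23, 15 had a log2 fold change above 0 in KO and 20 in WT. S1pr1 in KO rose by 0.95 (SE 0.15, adjusted p = 0.0026) and Ltb by 0.97 (SE 0.11, adjusted p = 0.000448). The median log2 fold change of the list was 0.21 in WT and 0.17 in KO, against -0.04 and -0.02 over all genes.

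Slamf6 is a receptor used together with TCF-1 to mark stem-like CD8 T cells. It was at a mean of 0.253 FPKM in WT, 1.05 in WT with PI3Kdi, 0.0267 in KO and 0.0533 in KO with PI3Kdi. Its log2 difference in KO was -1.47 without PI3Kdi (adjusted p = 0.00773) and -2.90 with it (adjusted p = 7.68e-05). These are on the log2(FPKM + 0.1) scale, and both KO groups lie under the 0.1 that is added, so its response to PI3Kdi in KO cannot be read from this scale or compared with that in WT.

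Transcription factors of effector T cells were examined as a counterpart, and 16 of 16 were in the table. In WT with PI3Kdi, 0 were called without the block, where 2 of 16 had an unadjusted p under 0.05 against 5.14% of all genes. With the block 4 were called against 2.57% of all genes. Irf4 rose by a log2 of 0.60 (adjusted p = 0.0078), while Prdm1, which encodes BLIMP-1, fell by 0.61 (adjusted p = 0.0227), Tox fell by 0.78 (adjusted p = 0.00812) and Zfp683, which encodes HOBIT, fell by 1.31 (SE 0.19, adjusted p = 0.00143). Tox was below 0.2 FPKM throughout. In KO with PI3Kdi, Zfp683 fell by 0.87 (SE 0.19, adjusted p = 0.0155 with the block). It was the only one of the 16 called there, where 2.79% of all genes were called. Between KO and WT 0 of 16 were called at either treatment, with or without the block, which is near the share over all genes. That share was 0.331% without the block and 0.233% with it in the absence of PI3Kdi, and 1.45% and 1.18% under PI3Kdi. Without the block 2 of the 16 had an unadjusted p under 0.05 between KO and WT without PI3Kdi and 3 with it, against 6.51% and 10.2% of all genes.

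Relatives and partners of the 7 factors were examined at the same thresholds. Of 25 listed genes, 19 were in the table: 6 of 8 TCF/LEF partners and relatives, 5 of 6 E proteins and Id genes, 5 of 5 BACH and MAF genes, 2 of 2 MYB genes and 1 of 4 SATB and FOXP genes. Limma called 0 of the 19 in any of the comparisons, with or without the block. At most 2.79% of all genes were called in any of them, so a count of 0 is near the share over all genes. At an unadjusted p under 0.05 with the block there were 5 of 19 for PI3Kdi in WT, 7 in KO, and 1 and 3 between the genotypes without and with PI3Kdi. Over all genes these shares were 23.7%, 29.5%, 5.09% and 9%. Ctnnb1, which encodes the TCF partner β-catenin, was at a mean of 47.6 FPKM in WT and 49.8 in WT with PI3Kdi. Id2, another Id gene, was far above Id3, at a mean of 321 FPKM in WT and 278 in WT with PI3Kdi. Mybl2 was at 16.4 FPKM in WT and 16.6 in KO, where Myb had gone from 5.39 to 8.92.

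Each factor was last compared with the 9543 genes that had at least 1 FPKM on average and were neither members nor predicted gene models, by the Pearson correlation of log2(FPKM + 0.1) over the 12 libraries, as a description of likeness. Groups and replicate pairs are shared by all genes, and these values carry no test. The genes most like Tcf7 were Plxdc2 (0.970), Ssbp2 (0.962) and Rasa3 (0.961), and those most like Id3 were Gimap7 (0.931), Gimap6 (0.930) and Trgj1 (0.926). Lef1 was most like Chst12 (0.917), Tgif1 (0.907) and Fam20a (0.902), and Bach2 was close to Nsd3 (0.937) and Kctd17 (0.936). Myb was most like Selenon (0.967), Zdhhc15 (0.965) and Scel (0.961). Satb1 was most like Zmynd11 (0.979), Pde3b (0.949) and Dpp4 (0.944), and Foxp1 most like Ifnar1 (0.906), Ccdc117 (0.880) and Cracr2a (0.868). Among the 7 themselves, Satb1 and Bach2 were the most alike (0.93), followed by Id3 and Tcf7 (0.88) and Bach2 and Tcf7 (0.86), while Myb was inverse to Id3 (-0.73) and to Tcf7 (-0.60). In WT, replicate 1 had the highest Tcf7, Bach2, Satb1, Foxp1 and Foxo1 of the 3 replicates at either treatment.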

How the data were processed

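The authors sorted CTL, made stranded mRNA libraries from 300 ng of RNA, aligned paired reads with STAR 2.7.1a to GRCm38.p6, counted reads per gene, filtered low genes and scaled by TMM with edgeR. The deposited values are FPKM at 2 decimals for 13283 genes. Genes removed by that filter were not analysed here. The strand column used in counting was not given in the sources used here. Gene positions came from GENCODE M21 on the same assembly.

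Short genes (at most 400 bp) gave each library's depth, 12.9 to 48.0 M reads, and 96.4 to 99.5% of values in held-out genes gave whole reads (within 0.2), against 40.0% by chance. Limma 3.58.1 (R 4.3.3) was fitted to log2(FPKM + 0.1) of all 12 libraries, with 4 group means and a mean-variance trend. P-values were two-sided and Benjamini-Hochberg adjusted over all genes, and called mRNA also had a fold change over 1.5. The replicate block treated libraries with one genotype and replicate number as correlated (duplicateCorrelation, 0.757). No label ties a pair to one mouse. Same-numbered libraries of the 2 genotypes had correlations of -0.409 to 0.73, so no pairing across genotypes was used. On simulated data for PI3Kdi in WT with 200 of the 13283 genes given a log2 change of 1, calls recovered 58.5% without the block and 94% with it. A correlation within pairs close to that of the block was built into the simulated data. The gain with the block was therefore set in advance and does not show that the real libraries are paired. The members and lists were chosen with earlier results of these data known. Named genes were the 7 members, Foxo1, list genes called in any comparison and the 3 genes most like each member, less 3 genes (2 of them from the lists) that are not reported here; list genes given as plain levels were named after their values were seen. Intervals cover the spread between replicates.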

Additional observations from a re-analysis of the deposited data

How the results depend on the processing

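Most values kept their direction and side of the threshold, and the replicate block moved the PI3Kdi counts most. Members called with PI3Kdi in WT went from 0 to 2 with the replicate block within genotype, to 2 with that block as fixed terms, to 1 (Tcf7) with a block shared by all groups and to 2 with voom and the block. In KO they went from 0 to 2 with the replicate block, to 2 with fixed terms and to 2 with voom and the block. Between KO and WT without PI3Kdi the count of 0 became 1 (Id3) among genes of at least 1 FPKM and 2 (Id3, Tcf7) with the shared block, and with PI3Kdi the count of 1 became 3 (Id3, Myb, Tcf7) with the shared block, which pairs libraries across genotypes. Averaged over PI3Kdi, the genotypes gave 1 (Tcf7) with voom and the block against 2.

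Leaving out 1 library at a time without the block gave 0 members in each PI3Kdi comparison, 0 to 1 between the genotypes without PI3Kdi, 1 with PI3Kdi and 0 for the difference of responses. With the block, added after seeing the data, the ranges were 2 to 3 in WT, 2 to 2 in KO, 0 to 1 (Tcf7, without KO replicate 1), 1 to 2 (Myb, without WT with PI3Kdi replicate 1) and 0. Without WT with PI3Kdi replicate 3, Id3 was called in WT beside Tcf7 and Bach2. Averaged over genotypes PI3Kdi gave 2 to 3, and the genotypes averaged over PI3Kdi 1 to 2.

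Reversals were all of small log2 values. With a library left out, Myb with PI3Kdi ranged from -0.11 to 0.12 in WT, -0.16 to 0.14 in KO. Between the genotypes without PI3Kdi, Lef1 ranged from -0.03 to 0.10 and Satb1 from -0.34 to 0.02, and with PI3Kdi Foxp1 ranged from -0.11 to 0.08. The difference of responses of Myb ranged from -0.18 to 0.13 and was -0.003 with libraries centred on the median, and that of Foxp1 ranged from -0.18 to 0.01. With the replicate block and a library left out, Myb with PI3Kdi went as low as -0.11 and -0.09 in WT, -0.07 and -0.001 in KO and -0.05 and -0.03 averaged, its difference of responses took values of -0.01, -0.03, -0.04, -0.05, -0.07 and -0.08, and Foxp1 between the genotypes with PI3Kdi took 0.02 and 0.05. The causes were not tested. Fixed terms give no comparison between genotypes, and the difference of responses always used all groups. Each group had 3 replicates, and the part of depth in these values was not tested.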
